A study of Homo sapiens with 6 samples.

Results

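The genes described here encode the intraflagellar transport machinery, the BBSome and the transition zone of the primary cilium. They are 43 gene symbols of the 26490 in the count table, chosen by name: 6 of the IFT-A complex, 11 of the IFT-B complex, 9 BBS genes, 4 motor genes, 12 transition zone genes and INPP5E. RNA-seq was used to compare SW403 cells with normal IRS2 expression (3 control libraries, genotype given as WT) with SW403 cells carrying an IRS2 knockdown (3 libraries). SW403 is an established human colon adenocarcinoma line, and both groups were grown for 24 h in DMEM with serum and received no treatment. The sample titles read knockdown and control, while the sample descriptions carry the tags IRS2KO and NS. How IRS2 was lowered, what the control cells received, and whether each group was 1 clone or a pool are not given in the sources used here. The cultures are numbered as biological replicates but are described only as seeded in triplicate, so p-values measure the spread between these cultures.

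The primary cilium is a single microtubule-based projection that many cells build when they leave the cell cycle and that concentrates receptors, among them those of the Hedgehog pathway. Trains of IFT-B and IFT-A particles carry cargo along it. Kinesin-2 drives the trains to the tip and the cytoplasmic dynein of the cilium brings them back. The BBSome is a coat-like adaptor that moves membrane proteins out of the cilium, and the transition zone is a gate at the ciliary base that decides which proteins enter. No cilia were counted or imaged in these data, and transcripts of these genes are present in many cells whether or not a cilium is built.

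The libraries held 11816973 to 18114656 counts, with the 3 knockdown libraries the deepest. IRS2, the targeted gene, had 381 to 437 counts in control and 186 to 216 in knockdown libraries, a 2.62-fold decrease (log2 fold change -1.39 ± 0.07 SE, edgeR adjusted p 3.12e-11). Of 10 colon epithelium markers, EPCAM, CDX2, KRT8, KRT18 and VIL1 were expressed at a level that could be tested, while CDX1 and KRT20 had no count in any library and CDH1, CDH17 and GPA33 had 12 to 19 counts in all. Endothelial and immune markers summed to at most 1.88 CPM in any library. The 6 fibroblast markers summed to 8.97 to 27.6 CPM in control and 5.80 to 7.29 CPM in knockdown, with the highest value in control replicate 1. The comparisons were repeated without that library, and the calls then lost among the 43 genes are named with them.

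All 43 genes passed the filter on low counts, with a median over the genes of 253.5 counts per library, the most for KIF3B (1854) and the fewest for BBS12. In knockdown cells 4 of them rose, KIF3B, IFT88, B9D1 and TMEM67, and 7 fell, DYNC2H1, BBS4, IFT27, TCTN1, IFT140, CC2D2A and IFT57. A gene is called here when edgeR's quasi-likelihood test, corrected over all tested genes, puts its adjusted p below 0.05. These 11 genes are 25.6% of the 43, against 38.5% of all 13832 tested genes called in either direction, 19.3% higher and 19.2% lower. Among genes with mean counts in the same range as the members, 38% were called. The share called was therefore no higher among the cilium genes than in the whole table. Their median log2 fold change was -0.03, beside -0.00391 for all tested genes, and the median absolute value was 0.11, beside 0.14. The largest difference was 1.46-fold, that of DYNC2H1. For 16 of the 43 genes the control and knockdown libraries did not overlap, 5 higher and 11 lower, which is 37.2%, against 47.6% of all tested genes. For the 32 genes not called, the 95% intervals of the log2 fold change lay between -0.55 and 0.41. In bulk RNA, fewer cells that express a gene and less of its RNA per cell cannot be told apart. With DESeq2's Wald test, 1 gene rose (KIF3B) and 1 fell (DYNC2H1), and the other 9 genes were not called. That test called 23.5% of all the genes it tested. Without control replicate 1, 3 genes rose and 4 fell, the lost calls being IFT140, BBS4, B9D1 and CC2D2A, and without control replicate 2, 2 rose and 4 fell. Without knockdown replicate 2, 1 rose and 5 fell. Of all tested genes, 32.6%, 31.7% and 31.0% were called in these leave-out fits, in the same order.

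**Figure D1:**
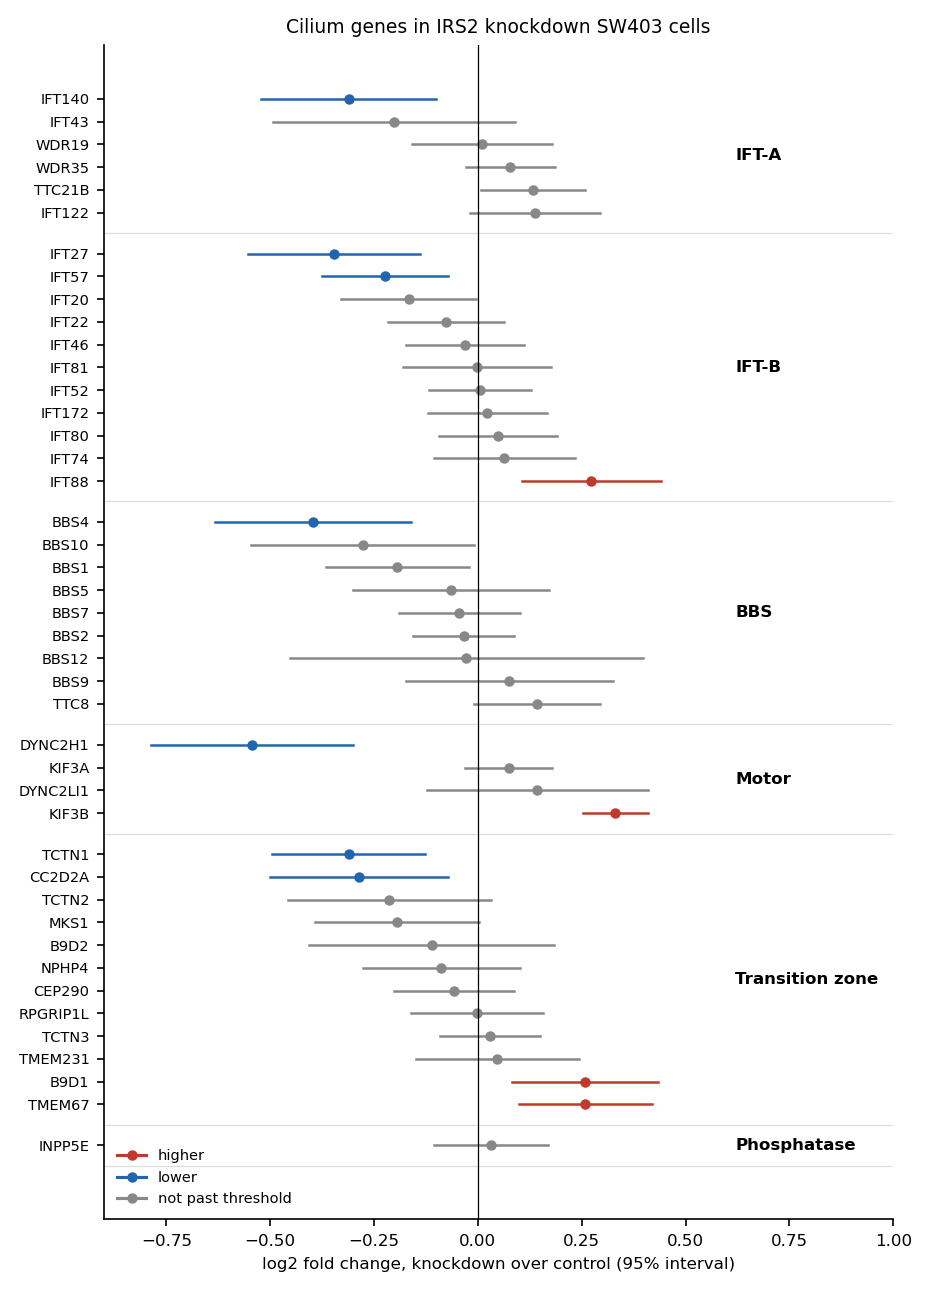
Log2 fold change of each of the 43 genes, knockdown over control, with its 95% interval, grouped by complex. Red marks genes called higher, blue genes called lower and grey genes not past the threshold. Each group with more than 1 gene holds members on both sides of 0, and the longest distances from 0 are DYNC2H1 at -0.54 and BBS4 at -0.40.

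Many cilium genes carry an X-box in their promoter, the sequence that RFX transcription factors bind. Promoter windows of 300 bases, from 250 before to 50 after the gene start in RefSeq on GRCh38.p14, were found for 38 of the 43 genes. WDR35, IFT22, BBS9, TCTN2 and TMEM67 had no entry. A relaxed X-box on either strand, written as GTNNCC, then 3 bases of any kind, then GNNAC, where N is any base, was present in 8 of the 38 windows (21.1%), against 4.81% of all 27305 promoters of the table and 5.22% of the 10818 that belong to tested genes. The shorter word GTTGCCA, a core of the X-box that can overlap it, was present on either strand in 10 of the 38 (26.3%), against 4.13% of all promoters. The 8 genes were IFT57, IFT80, WDR19, BBS7, DYNC2H1, TMEM231, B9D1 and B9D2. Of the genes that fell, 2 of 7 with a window held the relaxed X-box, of those that rose 1 of 3, and of those not called 5 of 28. The sequences below are those of the 3 called genes that hold a match, and of IFT80, B9D2 and TMEM231, the uncalled genes whose matches lie within 40 bases of the RefSeq gene start. The match of IFT80 reads in the opposite direction. Each is 30 bases, 5′ to 3′ on the strand of the gene, with the match in capitals, and was placed on GRCh37 by exact match.
DYNC2H1: agtgctccGTCGCCATAGCGACtacccctg
IFT57: ggagtctaGTTTCCCTGGTGACggattgtc
B9D1: ctgggactGTTACCTTGGCTACtggctccc
IFT80: tcttagaaGTCACTATGGTGACggggaggt
B9D2: agcctgctGTTGCCCCAGCAACaaccacgg
TMEM231: agccgtcgGTTGCCGTGGAGACcgaggcga
The window of DYNC2H1 lies at chr11:102980141-102980170 on the plus strand, and that of IFT57 at chr3:107941280-107941309 on the minus strand. The window of B9D1 lies at chr17:19281398-19281427, that of IFT80 at chr3:160116979-160117008, that of B9D2 at chr19:41870041-41870070 and that of TMEM231 at chr16:75590169-75590198, all on the minus strand. A match describes letters and does not show that a factor binds there. Among the RFX genes themselves, RFX1, RFX2, RFX3, RFX5 and RFX7 were expressed and none was called by edgeR, DESeq2 or limma voom (1, RFX5, had an unadjusted p under 0.05 in edgeR), and their log2 fold changes ran from -0.07 (RFX3) to 0.22 (RFX2).

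The motors held the rise and the fall with the smallest p in edgeR's test among the 43 genes. KIF3B encodes a motor subunit of the kinesin-2 that drives trains to the ciliary tip and also moves cargo in the cell body. It lies on chromosome 20 (GRCh37, 30865454 to 30922814, plus strand) and had 108, 115 and 114 normalised CPM in the control libraries and 143, 139.9 and 142 in the knockdown libraries. Every knockdown library was above every control library, and the libraries within a group differed by little. KIF3B rose 1.26-fold, from 113 ± 3.86 to 142 ± 1.47 CPM (SD; n = 3 per group), with a log2 fold change of 0.33 ± 0.04 (SE) and an edgeR adjusted p of 1.07e-06. It was called under all 18 alternative fits, with log2 fold changes from 0.26 to 0.35.

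DYNC2H1 encodes the heavy chain of the dynein that returns trains to the base. The gene lies on chromosome 11 (GRCh37, 102980139 to 103350591, plus strand), and its X-box match is printed above. It had 14.2, 18.5 and 20.4 CPM in control and 13.9, 11.8 and 10.9 CPM in knockdown libraries. The lowest control library stood just above the highest knockdown library, so the groups did not overlap but were close. DYNC2H1 fell by 31.4%, from 17.7 ± 3.15 to 12.2 ± 1.52 CPM (SD; n = 3 per group), with a log2 fold change of -0.54 ± 0.12 (SE) and an edgeR adjusted p of 0.000983. It was called under all 18 alternative fits, with log2 fold changes from -0.68 without control replicate 1 to -0.43 without control replicate 3.

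The partners of these motor subunits among the 43 genes, KIF3A and DYNC2LI1, were not called. Further motor genes, some of them called, are given below. KIF3A, the other motor subunit of the same kinesin, averaged 43.3 ± 0.840 CPM in the control and 45.5 ± 0.975 CPM in the knockdown libraries, which did not overlap (SD; n = 3 per group; log2 fold change 0.07, edgeR adjusted p 0.265). Its 95% interval, -0.03 to 0.18, lay below that of KIF3B, 0.25 to 0.41. DYNC2LI1, the light intermediate chain of the same dynein, had a log2 fold change of 0.14 (95% interval -0.12 to 0.41, edgeR adjusted p 0.406), while the interval of DYNC2H1 was -0.79 to -0.30. The difference between partners was not tested.

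IFT-A is the complex of the returning trains and also brings membrane proteins into the cilium. Of its 6 genes, 1 fell and none rose, and the median log2 fold change was 0.04. At an unadjusted p under 0.05 in edgeR's test 1 gene was higher, and DESeq2 and limma voom called 0 higher. IFT140, a scaffold subunit of the IFT-A core, had 14.3, 13.5 and 12.1 CPM in control and 10.1, 10.2 and 11.8 CPM in knockdown libraries. It fell by 19.4% (log2 fold change -0.31 ± 0.10 SE, edgeR adjusted p 0.0194). The groups did not overlap, and the highest knockdown library was close to the lowest control library. TTC21B, a peripheral subunit, had 42.8, 46.4 and 50.9 CPM in control and 53.9, 50.9 and 49.0 CPM in knockdown libraries, which overlap (log2 fold change 0.13, edgeR adjusted p 0.0858). The other core subunits, IFT122 and WDR19, had log2 fold changes of 0.14 and 0.00972, and the other peripheral subunits, WDR35 and IFT43, of 0.08 and -0.20. The call of IFT140 was lost without control replicate 1 (edgeR adjusted p 0.0964), control replicate 2 (0.0609), knockdown replicate 1 (0.0683) or knockdown replicate 2 (0.0828). IFT122 was called higher without knockdown replicate 3 (0.0388), and TTC21B without control replicate 3 or knockdown replicate 3 or with no filter on low counts (smallest adjusted p 0.0151).

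IFT-B is the complex of the outgoing trains and carries tubulin to the tip. Of its 11 genes 1 rose and 2 fell, and the median log2 fold change was -0.00196. IFT88, the subunit that bridges the parts of IFT-B and whose loss removes cilia in mice, had 16.4, 15.6 and 15.2 CPM in control and 17.7, 20.4 and 19.0 CPM in knockdown libraries. Each knockdown library was above each control library. IFT88 rose by 20.8% (log2 fold change 0.27 ± 0.08 SE, edgeR adjusted p 0.0110). IFT27, a small GTPase that links IFT-B to the exit of the BBSome from cilia, had 18.8, 17.0 and 17.5 CPM in control and 16.0, 14.5 and 11.8 CPM in knockdown libraries. It fell by 21.3% (log2 fold change -0.35 ± 0.10 SE, edgeR adjusted p 0.00917), and the knockdown libraries differed among themselves by more than the control libraries. IFT57, a peripheral subunit with the X-box match printed above, fell by 14.3%, from 21.1 ± 1.09 to 18.1 ± 0.496 CPM (SD; n = 3 per group; edgeR adjusted p 0.0203).

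The other 8 IFT-B genes had log2 fold changes from -0.17 to 0.06. IFT81 and IFT74, which together bind tubulin, were at -0.00196 and 0.06, and the scaffold genes IFT52 and IFT46 at 0.00451 and -0.03. IFT172 and IFT80 were at 0.02 and 0.05, and the small GTPase IFT22 at -0.08. IFT20, which also works at the Golgi, was at -0.17 (edgeR adjusted p 0.0976). IFT20 overlaps exons of TMEM97 on the other strand, and IFT80 those of SMC4. Reads of such pairs cannot be told apart where counting ignores strand, which is not stated. TMEM97 was itself lower (log2 fold change -0.17, edgeR adjusted p 0.00166), and SMC4 higher (0.11, edgeR adjusted p 0.00571). Other members also overlap exons of neighbours, among them BBS1 (ZDHHC24) and, on the same strand, IFT43 (TTLL5). Without knockdown replicate 2, IFT88 (edgeR adjusted p 0.0681) and IFT57 (0.0607) were not called. IFT57 was also not called without control replicate 2 (0.114) or knockdown replicate 3 (0.0502), and IFT27 was not called without knockdown replicate 3 (0.0556, log2 fold change -0.23).

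Of the 9 BBS genes, 7 encode BBSome subunits and 2, BBS10 and BBS12, encode chaperonin-like proteins that help assemble it. In knockdown 1 fell and none rose, and 7 of the 9 had a log2 fold change below 0, with a median of -0.05. Of all 13832 tested genes, 7025 had a log2 fold change below 0, and 19.2% were called lower and 19.3% higher. At an unadjusted p under 0.05 in edgeR's test 0 of the 9 BBS genes were higher and 3 lower, and DESeq2 and limma voom called 0 of them higher. BBS4, a BBSome subunit, had 13.1, 10.6 and 11.9 CPM in control and 10.1, 9.05 and 8.03 CPM in knockdown libraries. It fell by 24.1% (log2 fold change -0.40 ± 0.11 SE, edgeR adjusted p 0.00877), and the groups did not overlap. BBS1, which binds the GTPase ARL6, had 14.9, 15.8 and 16.4 CPM in control and 13.9, 13.9 and 13.5 CPM in knockdown libraries. Its groups did not overlap either, yet it was not called (log2 fold change -0.19, edgeR adjusted p 0.0691).

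BBS10 was at -0.28 with a 95% interval from -0.55 to -0.01 (edgeR adjusted p 0.0970), and its groups did not overlap. BBS12, with the fewest counts of all the genes, was at -0.03 with an interval from -0.45 to 0.40, so a change of the size seen in BBS4 was not detectable at this depth. BBS2, BBS5 and BBS7 lay between -0.06 and -0.03, and BBS9 and TTC8 at 0.08 and 0.14. BBS4 was not called without control replicate 1 (edgeR adjusted p 0.0634). BBS1 was called lower with upper-quartile factors, with library size alone and with the correction for length and GC content (smallest adjusted p 0.0253), and TTC8 was called higher without knockdown replicate 1 (0.0387).

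In the transition zone group of 12 genes, 2 rose and 2 fell, and 8 had a log2 fold change below 0, with a median of -0.07. Of all 13832 tested genes, 7025 had a log2 fold change below 0, and 38.5% were called in either direction. TCTN1, a member of the tectonic family of the gate, had 15.4, 13.7 and 14.5 CPM in control and 11.6, 11.4 and 12.1 CPM in knockdown libraries. All knockdown libraries were below all control libraries, and TCTN1 fell by 19.4% (log2 fold change -0.31 ± 0.09 SE, edgeR adjusted p 0.00870). TMEM67, which encodes the membrane protein meckelin, had 19.2, 17.0 and 17.9 CPM in control and 21.7, 22.8 and 20.2 CPM in knockdown libraries. The groups did not overlap, and TMEM67 rose by 19.7% (log2 fold change 0.26 ± 0.08 SE, edgeR adjusted p 0.0118). CC2D2A, a scaffold of the same module, fell by 18.0%, from 10.9 ± 0.160 to 8.87 ± 0.641 CPM (SD; n = 3 per group; edgeR adjusted p 0.0323).

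B9D1, with the X-box match printed above, had 18.7, 17.3 and 22.6 CPM in control and 23.1, 23.8 and 23.0 CPM in knockdown libraries. It rose by 19.6% (log2 fold change 0.26 ± 0.08 SE, edgeR adjusted p 0.0198), though control replicate 3 was almost as high as the knockdown libraries. B9D1 shares exon sequence with EPN2 and MAPK7 on the other strand, and EPN2 was itself higher in knockdown (log2 fold change 0.22, edgeR adjusted p 0.00203). Where counting ignores strand, which is not stated, part of these reads cannot be assigned. The related genes B9D2 and MKS1, whose proteins carry the same domain, were at -0.11 and -0.20 and were not called.

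The tectonics differed among themselves: TCTN2 was at -0.21 (edgeR adjusted p 0.163) and TCTN3, the one with the highest level, at 0.03, and the differences between them were not tested. CEP290 and RPGRIP1L, large proteins that hold the gate together, were at -0.06 and -0.00205. TMEM231 and NPHP4 were at 0.05 and -0.09. INPP5E, the phosphatase that sets the inositol lipids of the ciliary membrane, averaged 34.8 ± 2.11 CPM in the control and 35.6 ± 2.63 CPM in the knockdown libraries (SD; n = 3 per group; log2 fold change 0.03, edgeR adjusted p 0.749). With counts thinned to the depth of the smallest library, CC2D2A was not called (edgeR adjusted p 0.0866). Without control replicate 1, B9D1 (edgeR adjusted p 0.0793) and CC2D2A (0.0702) were not called. Without control replicate 2, B9D1 (0.129), CC2D2A (0.0907) and TMEM67 (0.0623) were not called, and the same held for CC2D2A without control replicate 3 (0.0589) or knockdown replicate 1 (0.116) and for B9D1 (0.0687) and TMEM67 (0.0666) without knockdown replicate 2.

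**Figure D2:**
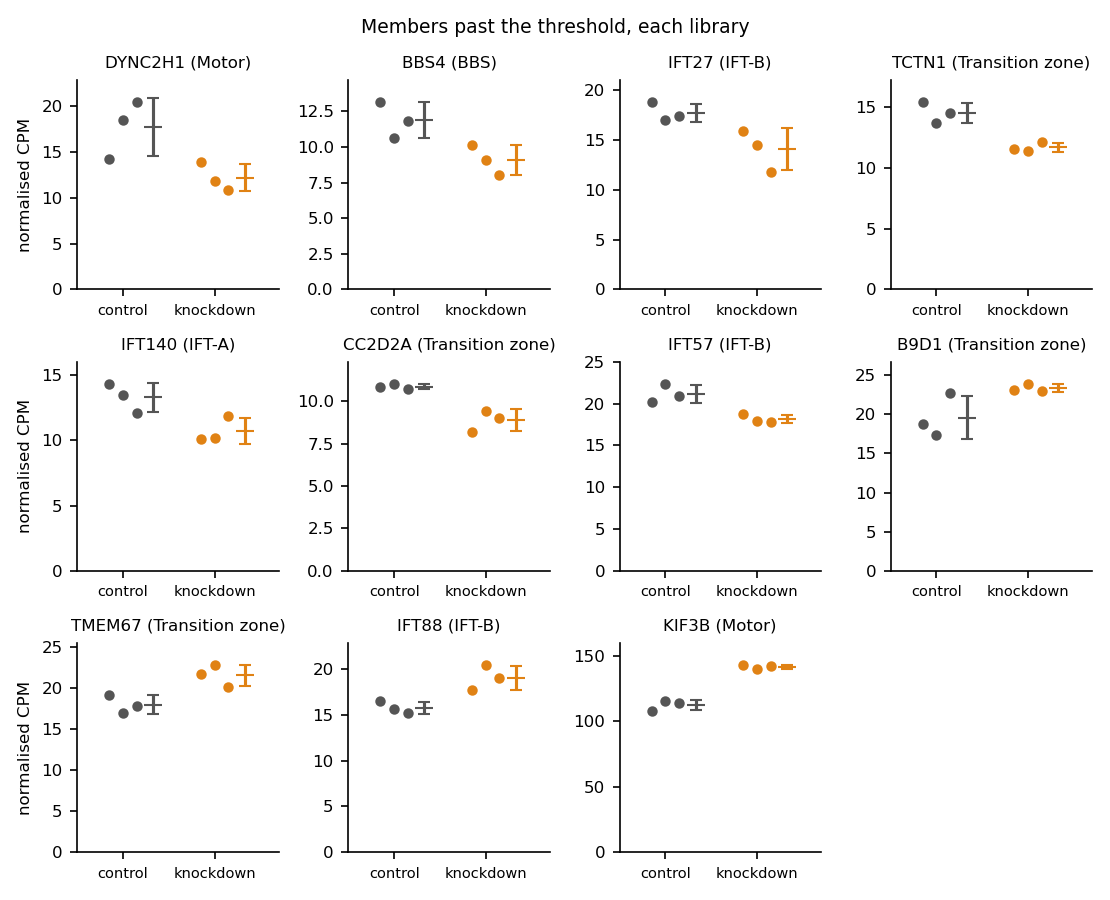
Normalised CPM in each library for the 11 genes past the threshold, control in grey and knockdown in orange, with the mean and SD of the 3 libraries beside the points; each axis starts at 0. KIF3B shows a clear gap between the groups (108 to 115 against 139.9 to 143 CPM), and B9D1 and DYNC2H1 each have 1 control library close to the knockdown values.

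Levels were compared between genes as CPM per kilobase of 1 canonical transcript (GENCODE version 44 lifted to GRCh37), a scale that ignores other isoforms. The level per kilobase, averaged over the group means, ran from 0.864 for BBS12 to 23.5 for B9D1, a 27.1-fold range. After B9D1 the highest were IFT20 (22.2), KIF3B (20.8), IFT52 (19.1) and TCTN3 (15.9). B9D1 and IFT20 have short canonical transcripts (913 and 860 nt) and share exon sequence with genes on the other strand. Their levels, and so the range, may include reads of those genes where counting ignores strand. Next to BBS12 at the bottom were DYNC2H1 (1.09), CC2D2A (1.90), BBS9 (2.02) and RPGRIP1L (2.25). In control libraries B9D1 (21.4 ± 3.04) and IFT20 (23.5 ± 1.81) per kilobase did not differ beyond their spread (SD; n = 3 per group). The IFT-A genes had a median level of 7.04 per kilobase, IFT-B 6.22, BBS 4.24 and transition zone 3.96, against 8.57 for all tested genes with a length. The heavy chain DYNC2H1, which has 89 exons in its canonical transcript of 13683 nt, stood far below its light intermediate chain DYNC2LI1 (1.09 against 5.29).

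**Figure D3:**
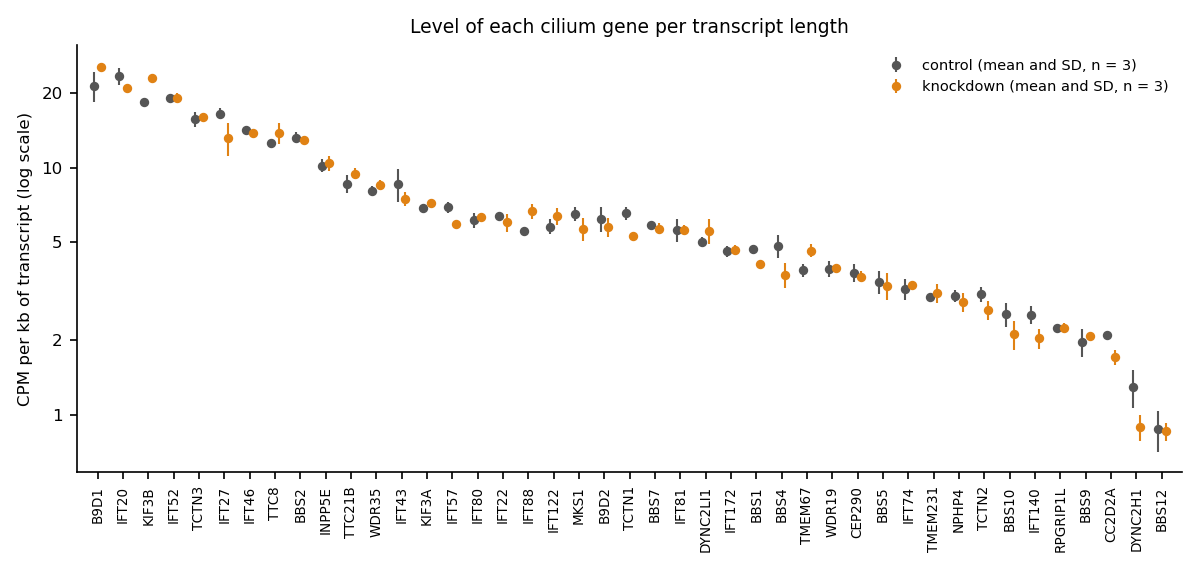
Level of each of the 43 genes as CPM per kilobase of canonical transcript, on a log scale, ordered from highest to lowest, with control in grey and knockdown in orange (mean and SD of 3 libraries each). The order is led by B9D1, IFT20 and KIF3B, and the group difference is small beside the 27.1-fold range between genes.

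Other genes of the cilium were read from lists written for this purpose. For comparison, 38.5% of all tested genes were called by edgeR. Of 6 further IFT-B genes none was called by edgeR (0 at an unadjusted p under 0.05, and 0 by DESeq2 and limma voom), with log2 fold changes from -0.23 to 0.12. Of 6 further BBS genes 2 fell and none rose (0 higher at an unadjusted p under 0.05 in edgeR and 0 by DESeq2 and limma voom). These were ARL6, the GTPase that recruits the BBSome to membranes (log2 fold change -0.54 ± 0.15 SE, edgeR adjusted p 0.00709), and WDPCP (-0.54 ± 0.15 SE, edgeR adjusted p 0.00732), and DESeq2 called neither. Of 16 further transition zone genes 1 rose, TMEM138 (0.22, edgeR adjusted p 0.0129), and 1 fell, TMEM107 (-0.29, edgeR adjusted p 0.0201). DESeq2 called neither TMEM138 (DESeq2 adjusted p 0.0911) nor TMEM107 (0.141). With counts thinned to the depth of the smallest library, neither TMEM138 (edgeR adjusted p 0.0658) nor TMEM107 (0.0581) was called. TMEM138 was also not called without control replicate 1 (edgeR adjusted p 0.0515) or knockdown replicate 1 (0.0522). TMEM107 was not called without control replicate 1 (0.159), knockdown replicate 2 (0.0649) or knockdown replicate 3 (0.0589), and WDPCP not without control replicate 2 (0.0766). The count of these transition zone genes that fell was 5 with the length and GC correction and 2 without knockdown replicate 1.

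Of 8 tested further motor genes 1 rose and 3 fell. The falls with the smallest p were KIF7, a kinesin of the ciliary tip in Hedgehog signalling, from 18.3 ± 0.786 to 13.8 ± 0.506 CPM (SD; n = 3 per group; edgeR adjusted p 0.000426), and WDR34, an intermediate chain of the same dynein as DYNC2H1 (log2 fold change -0.18, edgeR adjusted p 0.00365). The adaptor and membrane GTPase list had 9 of 15 genes called (38.5% of all tested genes were called), 2 higher and 7 lower. The count that fell was 2 without control replicate 2, 4 without knockdown replicate 2 and 2 with DESeq2. TULP3, which binds IFT-A to bring receptors and INPP5E into cilia, had 21.8, 23.2 and 22.2 CPM in control and 58.9, 57.3 and 55.5 CPM in knockdown libraries, a 2.55-fold rise (edgeR adjusted p 2.09e-12) that was larger than that of any of the 43 genes. TUB, its relative in the tubby family, fell from 12.3 ± 1.10 to 3.68 ± 0.156 CPM (SD; n = 3 per group; log2 fold change -1.74, edgeR adjusted p 3.39e-09).

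Of 15 basal body and distal appendage genes 2 rose, CEP164 of the distal appendages (log2 fold change 0.19, edgeR adjusted p 0.00441) and PCM1 of the centriolar satellites (0.10, 0.0396). The 2 that fell were C2CD3 (-0.20, edgeR adjusted p 0.0205) and CEP152 (-0.24, 0.0235). The count that rose was 1 with upper-quartile factors, with library size alone, with DESeq2, with a mean of at least 50 counts, with the length and GC correction and with the replicate block. It was also 1 without control replicate 1 or 2 or knockdown replicate 1 or 2. The count that fell was 1 without control replicate 2, and 0 without control replicate 3 or knockdown replicate 3 and with DESeq2. Of 18 genes of motile cilia 4 were expressed enough to be tested and 1 fell, SPAG16 (-0.60, edgeR adjusted p 0.00209). The count that fell was 2 without control replicate 3, with DESeq2, with limma on the deposited normalised values and with no filter on low counts. FOXJ1, the main transcription factor of motile cilia, had 3 counts in all libraries together, HYDIN and DNAH9 had 1 each, and DNAI2 and TEKT1 had 0. The motile cilium genes with the most counts were SPAG16 (493) and CCDC40 (352). MCIDAS, on the transcription factor list, had 522 counts and was not called (log2 fold change 0.35, edgeR adjusted p 0.0826). Of 7 tested transcription factor genes 1 fell, TP73 (-0.27, edgeR adjusted p 0.0400). Without control replicate 3, 1 transcription factor gene was called higher. TP73 was not called when any library other than control replicate 3 was left out (edgeR adjusted p up to 0.167). It was also not called by DESeq2 (adjusted p 0.233) or by limma on the deposited normalised values (adjusted p 0.0664). C2CD3 was not called without control replicate 2 (edgeR adjusted p 0.103), control replicate 3 (0.0814) or knockdown replicate 3 (0.0606). Of 8 genes for kinases and partners that act in taking cilia apart, 4 rose and 1 fell (62.5% called, against 38.5% of all tested genes). AURKA, PLK1, NEK2 and KIF2A rose, and NEDD9 fell. AURKA, a mitotic kinase that starts ciliary disassembly, rose from 197 ± 3.38 to 253 ± 3.94 CPM (SD; n = 3 per group; edgeR adjusted p 3.99e-08). Its partner NEDD9 fell from 37.5 ± 0.974 to 21.6 ± 1.41 CPM (edgeR adjusted p 1.28e-08).

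**Figure D4:**
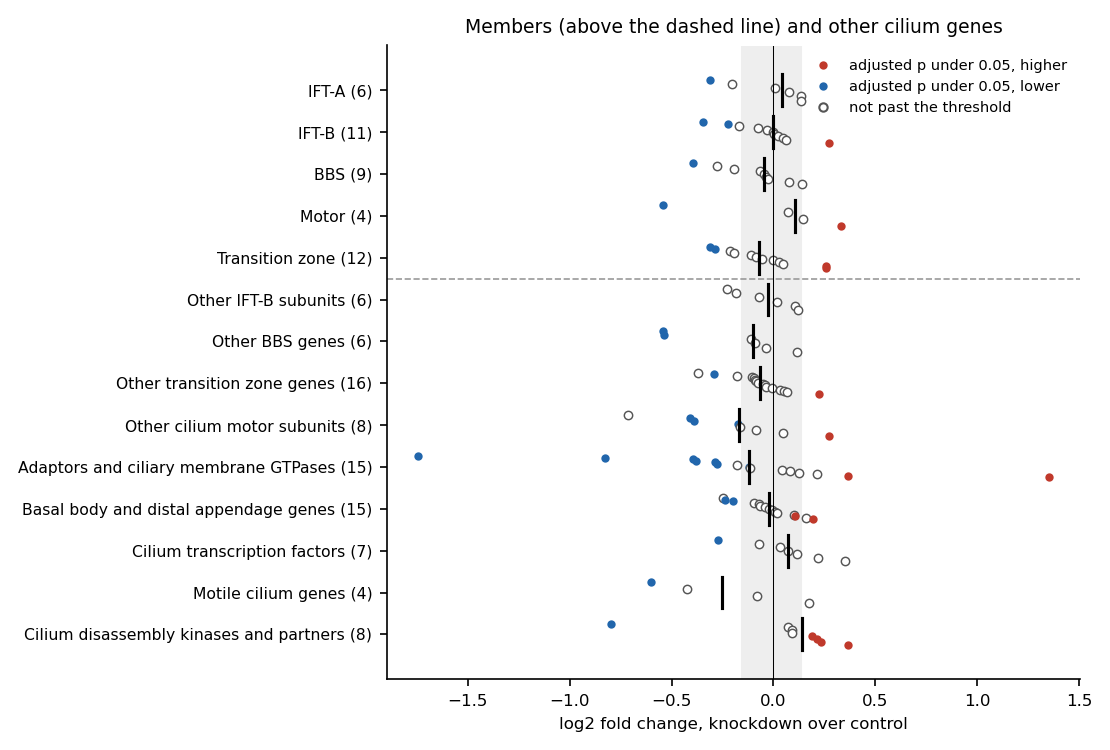
Log2 fold change of each tested gene in the member groups (above the dashed line) and in the other cilium gene lists, with the number of genes in brackets and the median as a black bar; filled points passed the threshold, and the grey band spans the middle of all tested genes, from the first quartile (-0.15) to the third (0.14). TULP3 at 1.35 and TUB at -1.74 lie outside the range of the 43 genes, which runs from -0.54 to 0.33.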

How the data were processed

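The authors deposited whole-number read counts per gene symbol and a second table of normalised signal, in which the counts of each library are divided by 1 constant. STAR 2.6.1a, Salmon, DESeq2 and the build hg19 are named, without roles, in the submitters' processing notes; the annotation and strand setting are not given in the sources used here. Counts were tested with edgeR 4.0.16 (R 4.3.3; TMM factors, filterByExpr, quasi-likelihood F-test, group as the only term), with Benjamini-Hochberg adjustment over 13832 genes and a threshold of 0.05. SE was taken as the size of the log2 fold change over the root of the F statistic. Printed CPM are TMM-normalised, except marker sums, which use total counts. Of the fits, only the main edgeR fit was run on simulated counts, and the share of small changes it recovered is not reported here.

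Values in every library are given for called genes with an absolute log2 fold change of at least 0.3 and for the 2 genes with the smallest p of each group; B9D1 was added after its values were seen. From each other cilium list the 2 called genes with the smallest p are named, and genes named beyond these were chosen after their values were seen. Members and lists were chosen with earlier results of these data known, so no list was tested as a set. Alternatives were other scalings, filters, tests (DESeq2 1.42.0, limma 3.58.1), thinning, a replicate block, a length and GC correction, a threshold of 0.01 and leaving out each library. Coordinates come from GENCODE version 44 on GRCh37, which may not be the annotation used for counting. Promoter sequences come from RefSeq (GRCh38.p14). Amplified reads are not independent molecules.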

Additional observations from a re-analysis of the deposited data

How the results depend on the processing

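Of 773 values of the 43 genes under the 18 alternatives, 682 kept both direction and side of the threshold, 35 lost a call, 8 gained one and 48 changed sign, none of them past the threshold. No called gene changed sign, and KIF3B and DYNC2H1 were called throughout. DESeq2's Wald test called 1 gene higher and 1 lower (against 4 and 7). In the whole table it called 3599 of 15331 tested genes, against 5329 of 13832 in the main fit. The cause was not tested. At an adjusted p of 0.01, 1 was higher and 4 were lower, by the stricter threshold itself, and 26.9% of all tested genes were called. Leaving out 1 library gave 1 to 6 higher and 4 to 6 lower genes with fewer samples, and a median log2 fold change from -0.0869 to -0.0302 for the BBS genes and from -0.0898 to -0.0240 for the transition zone genes. Over all 18 alternatives, IRS2 stayed between -1.48 and -1.35 on the log2 scale. The replicate numbers are shared by both groups, but the deviations of same-numbered libraries correlated at 0.11, 0.14 and -0.12, and 3 of 6 libraries correlated best with their own number. A fit with the replicate block called 4862 genes, 4 of the 43 higher and 7 lower, and changed no call among them.

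Sign changes were confined to 11 uncalled genes near 0, and their cause was not tested. With library size alone, WDR19 was at -0.0209, IFT172 at -0.00815, IFT52 at -0.0261 and TCTN3 at -0.00121. With upper-quartile factors WDR19 was at -0.0110 and IFT52 at -0.0163, and with a mean of at least 50 counts they were at -0.00323 and -0.00849. With the length and GC correction WDR19 was at -0.0345, IFT172 at -0.0471, TMEM231 at -0.00510 and INPP5E at -0.0111. With DESeq2 size factors IFT81 was at 0.00632 and RPGRIP1L at 0.00621, with no filter at 0.00939 and 0.00936, with DESeq2's Wald test at 0.00812 and 0.00710, and with limma on the deposited normalised values at 0.0137 and 0.00745. IFT81 was at 0.000173 with limma voom, 0.00470 with thinned counts and 0.00354 with the replicate block, and IFT52 at -0.0260 with thinned counts. Leaving out 1 library gave ranges of -0.0317 to 0.0746 for WDR19, -0.0184 to 0.0656 for IFT172, -0.0161 to 0.0411 for IFT52, -0.0806 to 0.0604 for IFT81, -0.156 to 0.0325 for BBS5, -0.134 to 0.134 for BBS12, -0.109 to 0.0153 for CEP290, -0.0304 to 0.0380 for RPGRIP1L, -0.00494 to 0.0922 for TCTN3, -0.00983 to 0.125 for TMEM231 and -0.0286 to 0.0852 for INPP5E.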
